A study of Mus musculus with 4 samples.

Results

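Of the 25745 peaks that the study listed as gained in *Smyd1-KO* hearts, 1638 lay in gene deserts, and these desert peaks are described here. They were chosen by their score, which had to be below 200, and by their position. The score is the tag value of the *Smyd1-KO* libraries in the peak as HOMER wrote it. It is not a whole-number count of reads, and its scaling is not given in the sources used here, so scores are read as relative values and called tags for short. A desert peak lay outside every protein-coding gene, more than 10 kb from every annotated transcription start site (TSS) and more than 100 kb from the nearest protein-coding TSS. The desert peaks made up 6.36% of the gained list. Of all 25851 differential peaks 99.6% were of the gained kind, and since the direction was part of the rule, nothing is read from it.

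The assay for transposase-accessible chromatin (ATAC-seq), in which a transposase cuts DNA that nucleosomes leave free, was applied to whole mouse hearts at embryonic day 9.5 (E9.5). The hearts were wild type (WT) or carried a conventional null genotype for *Smyd1*, which encodes a muscle-restricted enzyme that methylates histones (*Smyd1-KO*). There were 2 libraries per genotype, and each was made from 40000 viable cells of 4 pooled hearts, so that cardiomyocytes, endocardium and other cell types of the heart were mixed. The deposited lists hold only peaks whose tags differed by a factor of at least 2 after the libraries of a genotype had been combined, hence the values come without replicate errors and the genotypes are compared by no test. More or fewer cells of a type and a change of accessibility within a type cannot be told apart, and the tissue could not be checked against its markers, because only differential peaks were listed. The depth of the single libraries is not given in the lists.

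Gene deserts are long stretches without protein-coding genes. Many border genes of developmental regulators, and the deserts beside such genes often carry enhancers, short elements that bind transcription factors and act on a promoter over a long distance by looping of the chromatin. CTCF, a zinc finger protein that halts loop extrusion by cohesin, binds at many loop anchors and domain borders. GATA, MEF2, TEAD, NKX2, TBX and MEIS proteins are transcription factors with roles in the heart.

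The sequences of a few desert peaks are given first, so that the base composition and motif matches described further on can be seen in them. All intervals have the same width, are on the mm10 (GRCm38) build, count from 1 and are printed on the plus strand from 5′ to 3′. The first 4 are the highest-scoring desert peaks of 4 of the deserts with most of them, bordered by *Nr2f2* and *Gm10295*, by *Slc4a3* and *Epha4*, by *Slc10a2* and *Efnb2*, and by *Arglu1* and *Fam155a*. Capitals mark every match to the motifs searched, which here are MEIS (TGACAG), NKX2 (TNAAGTG) and the GATA string, written AGATAAG, each read on either strand.
*Nr2f2* desert, chr7:71239417-71239565: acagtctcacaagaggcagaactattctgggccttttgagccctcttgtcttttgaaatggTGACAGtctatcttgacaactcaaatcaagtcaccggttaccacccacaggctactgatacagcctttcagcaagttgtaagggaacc
*Epha4* desert, chr1:76658425-76658573: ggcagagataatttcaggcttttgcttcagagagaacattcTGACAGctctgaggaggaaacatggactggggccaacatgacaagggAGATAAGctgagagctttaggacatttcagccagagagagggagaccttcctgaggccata
*Efnb2* desert, chr8:8282264-8282412: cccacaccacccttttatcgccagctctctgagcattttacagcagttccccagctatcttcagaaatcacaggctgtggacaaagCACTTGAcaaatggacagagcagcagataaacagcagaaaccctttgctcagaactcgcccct
*Fam155a* desert, chr8:8992627-8992775: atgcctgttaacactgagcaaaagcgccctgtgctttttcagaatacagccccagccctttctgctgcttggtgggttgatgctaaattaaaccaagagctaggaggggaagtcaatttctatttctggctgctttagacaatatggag
The scores of these peaks were 110, 119.5, 144.5 and 121.5 tags, and their GC contents were 46.3%, 48.99%, 49.7% and 45.6%. The peak between *Arglu1* and *Fam155a* held no match to any motif searched.

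The next 8 are the 2 highest-scoring desert peaks with a match to each of CTCF, MEF2, GATA and TEAD (ACATTCCA), and capitals mark only the match for which the peak is shown. The CTCF and MEF2 motifs were searched as consensus strings of 14 and 10 letters.
CTCF, near *Tns1*, chr1:73826392-73826540: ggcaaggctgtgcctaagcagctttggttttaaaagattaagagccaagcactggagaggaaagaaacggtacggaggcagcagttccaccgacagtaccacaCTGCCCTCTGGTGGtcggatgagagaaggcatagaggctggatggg
CTCF, near *Slc22a12*, chr19:6663475-6663623: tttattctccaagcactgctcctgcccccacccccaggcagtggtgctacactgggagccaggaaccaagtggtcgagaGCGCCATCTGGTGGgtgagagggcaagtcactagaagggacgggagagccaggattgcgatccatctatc
MEF2, near *Gadd45g*, chr13:52079979-52080127: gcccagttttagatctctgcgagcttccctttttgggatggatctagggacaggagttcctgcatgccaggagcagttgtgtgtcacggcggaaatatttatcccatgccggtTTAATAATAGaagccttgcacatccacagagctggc
MEF2, near *Fam43a*, chr16:30737037-30737185: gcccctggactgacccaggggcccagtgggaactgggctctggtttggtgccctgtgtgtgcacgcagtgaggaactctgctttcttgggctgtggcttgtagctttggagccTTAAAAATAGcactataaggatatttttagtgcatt
GATA, near *Ptprz1*, chr6:22720107-22720255: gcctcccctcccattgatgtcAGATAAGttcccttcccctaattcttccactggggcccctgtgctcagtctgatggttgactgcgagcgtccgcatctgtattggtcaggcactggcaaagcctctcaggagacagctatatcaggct
GATA, near *Cobl*, chr11:12205673-12205821: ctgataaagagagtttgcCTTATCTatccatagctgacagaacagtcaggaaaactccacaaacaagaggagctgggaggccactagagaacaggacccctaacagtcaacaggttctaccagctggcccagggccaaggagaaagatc
TEAD, near *Cacnb2*, chr2:14496273-14496421: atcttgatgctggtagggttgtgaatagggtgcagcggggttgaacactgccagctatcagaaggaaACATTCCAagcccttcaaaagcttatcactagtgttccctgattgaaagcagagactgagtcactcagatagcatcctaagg
TEAD, near *BC067074*, chr13:113454592-113454740: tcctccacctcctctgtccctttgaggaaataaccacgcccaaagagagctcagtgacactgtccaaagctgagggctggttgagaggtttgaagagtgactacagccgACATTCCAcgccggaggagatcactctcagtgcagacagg
The gene named is the one whose protein-coding TSS lay nearest. The distance was 102 kb for the peak near *Tns1* (tensin 1, a focal adhesion protein) and 120 kb for *Slc22a12* (a urate transporter). It was 233 kb for *Gadd45g* (a stress response gene), 107 kb for *Cacnb2* (a subunit of the voltage-gated calcium channel of cardiomyocytes) and 164 kb for *Cobl* (an actin nucleator). Of these 8 peaks, the one near *Cacnb2* scored highest, at 197 tags, and the one near *Fam43a* lowest, at 157.5 tags.

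The desert peaks were weak peaks by construction. Their scores ranged from 28.5 to 199.5 tags with a median of 63.5 and quartiles of 47 and 91.5. Weaker peaks in intergenic sequence within 100 kb of a protein-coding TSS, of which there were 2259, had a median of 80.5 tags, and the 3024 weaker distal peaks inside protein-coding genes had one of 75 tags. At the same desert location 116 gained peaks reached 200 tags or more, with a median of 254 and a maximum of 1394. Since the score chose the members, these values are a description without a test.

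**Figure D1:**
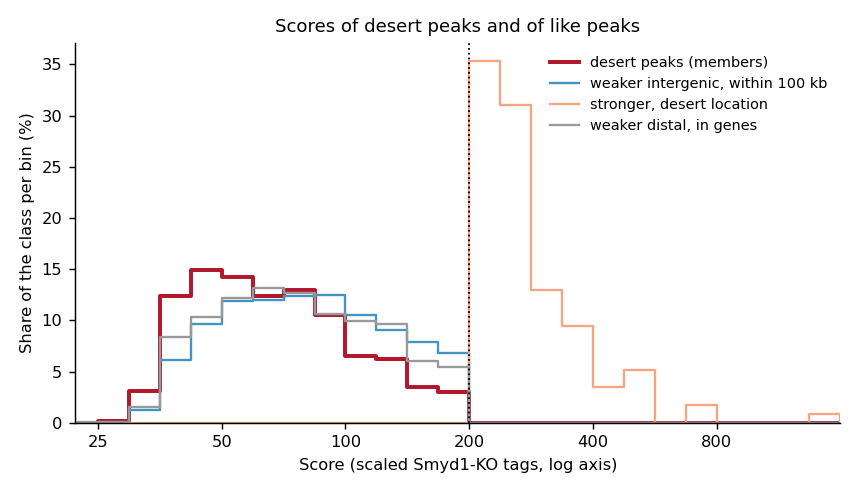
Distribution of the score (x axis, scaled tags of the *Smyd1-KO* libraries, log scale) as the share of each class of gained peaks per bin (y axis, percent), with the limit of 200 tags dotted. The desert peaks (red) crowd towards low scores, with a median of 63.5 tags against 80.5 tags in the weaker intergenic peaks nearer to genes (blue).

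At the limits of the rule the values ran on without a break. The desert peaks with the highest scores reached 197.5, 199 and 199.5 tags, and the lowest of the stronger peaks at such places had 200.5, 200.5 and 203 tags. The members nearest to a protein-coding TSS lay 100.01, 100.22 and 100.33 kb away, and the farthest peaks left out on that ground lay at 99.58, 99.61 and 99.62 kb. For any TSS the nearest members lay at 10.03, 10.03 and 10.04 kb, and the peaks just left out at 9.95, 9.97 and 9.98 kb.

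The 10 highest-scoring desert peaks lay between 189.5 and 199.5 tags. The first 3 were 220 kb from *Ank*, a pyrophosphate transporter, 143 kb from the predicted gene *Gm26897*, and 143 kb from *Sipa1l2*. Others lay 107 kb from *Cacnb2*, 145 kb from *Sox2*, a transcription factor of stem and neural cells, 254 kb from *Plxdc2* in the desert shared with *Nebl*, which encodes a thin filament protein of cardiac muscle, and 742 kb from *Gsdmc* in the desert shared with *Myc*. The other 3 of the 10 lay 135 kb from *Eipr1*, 335 kb from *Sall3* and 195 kb from *Spdye4c*. None of the 10 held a match to CTCF, GATA or MEF2, 1 held a match to TEAD and 4 a match to NKX2. The peak in the desert of *Plxdc2* and *Nebl* differed from the other 9 in its uniqueness, since 35.96% of its 36-base words recurred elsewhere in the genome against at most 7.02% in the others.

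The median distance of a desert peak to a protein-coding TSS was 225 kb, with quartiles of 149.3 and 369 kb and a maximum of 2212 kb. The nearest TSS of any kind was 48.4 kb away at the median and 564 kb at most. That TSS belonged to a long intergenic noncoding RNA (lincRNA) for 559 peaks, to a processed pseudogene for 530 and to a protein-coding gene for 85. The body of an annotated noncoding gene held 167 desert peaks, or 10.2%, and for 141 of them this gene was a lincRNA. The lincRNA *Gm31135* held 7 of them and *6030407O03Rik*, in the desert of *Tnp1* and *Tns1*, held 5. How much of the eligible sequence lies in or near noncoding genes was not measured, so no preference is read from these counts.

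Sequence in which a peak could be a member, here called eligible sequence, covered 690.0 Mb, or 26.1% of the gap-free genome, in 1859 deserts. The desert peaks amounted to 2.37 per Mb of it (95% exact Poisson interval 2.26 to 2.49), and gained peaks of every kind to 9.72 per Mb of the whole genome. At the desert location all but 18 of 1772 differential peaks were of the gained kind, 99.0% (95% exact binomial interval 98.4 to 99.4%), a share that the rule also used. Intervals here and below cover counting error only.

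Density fell with distance from protein-coding TSSs. It was 3.65 per Mb (3.38 to 3.92) at 100 to 200 kb, 2.46 (2.28 to 2.65) at 200 to 500 kb, 1.304 (1.13 to 1.5) at 500 kb to 1 Mb and 0.605 (0.431 to 0.828) beyond 1 Mb, where 39 desert peaks lay. The intervals of neighbouring bands did not overlap. The share of peaks with over 10% recurring 36-base words was 7.54%, 6.10%, 17.4% and 28.2% in the same bands, and the part of such sequence in the decline was not tested.

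Density also rose with the GC content of the desert. The deserts were divided by GC content into 4 groups of like number. In the lowest group, from 29.3 to 38.7%, it was 1.23 per Mb (1.12 to 1.35), and in the highest, from 42.8 to 61.2%, it was 5.82 per Mb (5.26 to 6.43). Both groups between them lay in order, at 2.22 and 4.72 per Mb.

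Chromosomes differed in density. Chromosome 13 had the highest, with 139 desert peaks and 4.67 per Mb (3.92 to 5.51), and the other autosomes ranged from 1.82 per Mb on chromosome 5 to 3.34 on chromosome 9. The X chromosome had 28 desert peaks and 0.570 per Mb (0.379 to 0.823), and the Y chromosome had 2. Gained peaks of every kind were also sparse on X, at 3.61 per Mb against 8.59 to 15.6 per Mb on the autosomes. On chromosome 13, 37 of the desert peaks lay in deserts bordered by a heart regulator such as *Irx1*, *Isl1*, *Mef2c* or *Nr2f1*, and without those deserts the density was 4.51 per Mb.

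Desert peaks were spread over 748 deserts, 40.2% of all deserts with eligible sequence. A single one was found in 365 deserts, 2 in 159, and 3 or more in 224. The 69 deserts with 5 or more held 431 desert peaks, 26.3% of the total, in 11.5% of the eligible sequence. The deserts without any were smaller, with a median of 0.0916 Mb of eligible sequence against 0.360 Mb where there was at least 1. The largest desert without a desert peak lay on the X chromosome between *Diaph2* and *Pcdh19* and had 2.63 Mb of eligible sequence. On an autosome it was the desert between *1700015G11Rik* and *Luzp2*, with 2.43 Mb.

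The desert with most peaks lay on chromosome 7 between *Nr2f2*, which encodes COUP-TFII, a nuclear receptor of atrial and venous identity, and the predicted gene *Gm10295* (chr7:70366736-71348960). It held 12 desert peaks in 0.546 Mb of eligible sequence, 21.98 per Mb (95% exact Poisson interval 11.4 to 38.4). In order along the chromosome from *Nr2f2*, their scores were 59, 38, 44, 103, 80, 64.5, 55.5, 71, 103.5, 76.5, 88 and 110 tags. The second to eighth of them stood within 115 kb, between 365 and 479 kb from the *Nr2f2* TSS, and formed the longest run in which neighbours were at most 50 kb apart. None of the 12 held a match to CTCF, GATA, MEF2 or TEAD.

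Between *Slc4a3*, an anion exchanger, and *Epha4*, an ephrin receptor, on chromosome 1 (chr1:75562173-77367184), 11 desert peaks scored 45 to 119.5 tags. Of these, 7 lay between 133 and 402 kb from *Epha4* and the highest-scoring 719 kb from it. Between *Slc10a2*, a bile acid transporter, and *Efnb2*, the ephrin-B2 ligand of arterial endothelium, on chromosome 8 (chr8:5105352-8617433), all 10 were nearer to *Efnb2*. Their distances to it ran from 223 to 1572 kb and their scores from 38.5 to 144.5 tags. The desert is the longest of the 12 with most desert peaks, at 3.51 Mb, and its density of 3.57 per Mb was the lowest of them.

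Between *Meis1*, a homeobox gene of the TALE class, and *Spred2*, an inhibitor of Ras signalling, on chromosome 11 (chr11:19018986-19924374) the 9 desert peaks scored 93, 73.5, 58, 53, 72.5, 140.5, 164, 84.5 and 69.5 tags from left to right. The last 5 of them lay within 26.95 kb, at 253 to 280 kb from *Spred2*, and this was the second longest run. The 9 peaks between *Sall1*, a zinc finger repressor, and *Tox3* on chromosome 8 (chr8:89044163-90247039) scored 36.5 to 140 tags, and 1 of them held a CTCF match. The 10 peaks between *Zfp608* and *Gramd3* on chromosome 18 scored 31.5 to 168.5 tags.

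Between *Jag1*, a Notch ligand, and *Btbd3* on chromosome 2 (chr2:137116645-138256564) the 8 desert peaks scored 142, 46, 37, 93.5, 81.5, 79, 46 and 35 tags, starting 306 kb from *Jag1*. Between *Pard3*, a cell polarity protein, and *Nrp1*, a co-receptor for VEGF and semaphorins, on chromosome 8 (chr8:127612287-128358603) there were 8 with scores from 45 to 121 tags. *Adgrl2* and *Adgrl4*, adhesion G protein-coupled receptors of which *Adgrl4* is expressed in endothelium, flanked 9 on chromosome 3 (chr3:148990556-151437886) with scores from 34.5 to 139 tags. *Arglu1* and *Fam155a* flanked 9 on chromosome 8, and 8 each were found between *Auts2* and *Castor2* on chromosome 5 and between *Fat4*, a giant cadherin, and *Intu*, a planar polarity protein, on chromosome 3.

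**Figure D2:**
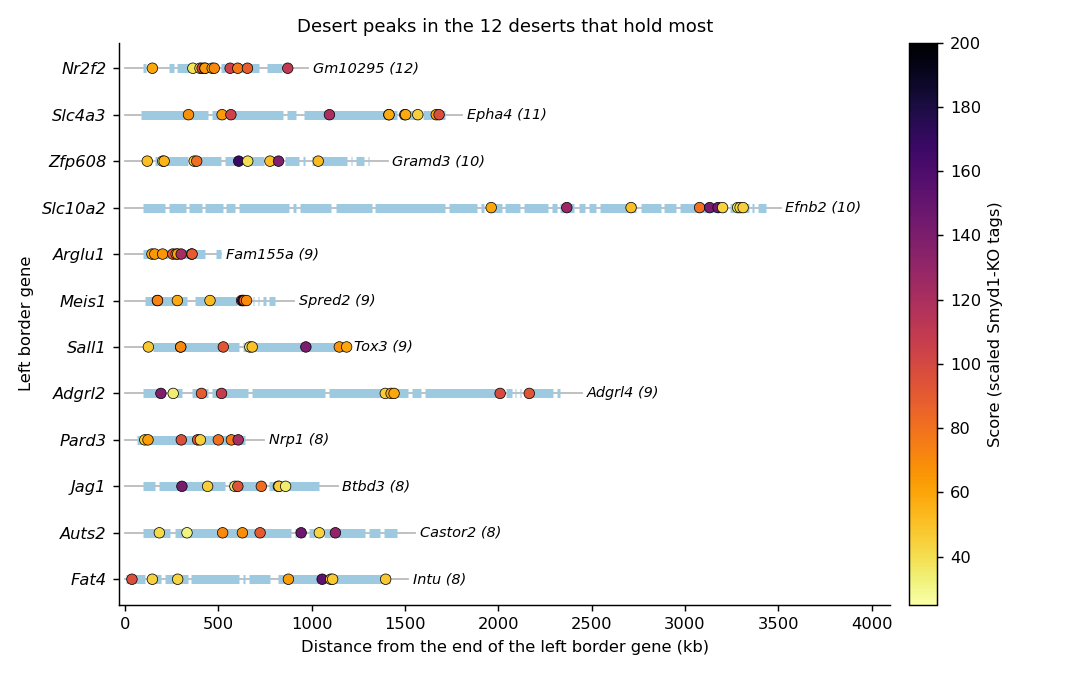
Desert peaks in the 12 deserts that hold most, each drawn from the end of its left border gene (y axis) in kb (x axis) to its right border gene, named at the right with the number of desert peaks in brackets. Blue bars are eligible sequence and circles are desert peaks coloured by score. The 7 peaks of the run beside *Nr2f2* and the 5 towards *Spred2* stand close together, whereas those beside *Efnb2* fill the right part of the longest desert.

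By density, the order of the deserts with at least 5 desert peaks was another one. The highest density was found between *Serp2* and *Lacc1* on chromosome 14, at 29.3 per Mb (95% exact Poisson interval 9.53 to 68.5), where 5 desert peaks scored 110, 133.5, 69.5, 178.5 and 85 tags. *Arglu1* to *Fam155a* followed with 26.5 per Mb (12.1 to 50.2) and *Nr2f2* to *Gm10295* with 21.98. The desert of *Msx2*, a homeobox gene of neural crest and valves, and *Drd1*, a dopamine receptor, on chromosome 13 had 19.7 per Mb (6.41 to 46.1) and that of *Lyplal1* and *Tgfb2*, a ligand needed for endocardial cushions, on chromosome 1 had 19.3 per Mb (7.08 to 42.0). *Ccdc91* to *Far2*, *Meis1* to *Spred2* and *Pard3* to *Nrp1* had 18.5, 16.2 and 13.8 per Mb. The intervals of all 8 overlap, so their order is not resolved.

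In the desert of *Lyplal1* and *Tgfb2* (chr1:186117311-186622791), 5 of the 6 desert peaks were nearer to *Tgfb2*, at 134 to 250 kb, and the farthest of these scored highest, while the others scored 56.5, 72.5, 99.5 and 134 tags. The desert of *Msx2* and *Drd1* (chr13:53473075-54051182) held scores of 89, 153, 98.5, 133 and 112.5 tags, and the peak of 133 tags held a CTCF match. Desert peaks in the latter were thus all above the median of 63.5 tags.

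The gene lists used from here on were chosen with earlier results of these data known, so they are not independent of the data. Of 72 genes listed as regulators of heart development, 46 bordered a desert with eligible sequence, 61 deserts in all. A desert peak was present in 43 of these deserts, 70.5%, against 40.2% of all deserts, and 35 of the 46 genes had at least 1 beside them. The deserts of the list held 142 desert peaks, 5.02 per Mb (95% exact Poisson interval 4.22 to 5.91), against 2.37 per Mb over all deserts. All deserts of the list lay on autosomes, where the density over all deserts was 2.68 per Mb. The deserts of the list were also larger, with 0.315 Mb of eligible sequence at the median against 0.167 Mb at the median of all deserts, so that the share of deserts with a peak moves with their size.

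The density of the heart list was set beside that of all deserts at like distance and GC content. At 100 to 200 kb it was 5.92 per Mb (4.35 to 7.88) against 3.65, at 200 to 500 kb 5.19 (4.04 to 6.57) against 2.46, and at 500 kb to 1 Mb 5.10 (3.30 to 7.53) against 1.304. Beyond 1 Mb the list had 1 desert peak in 2.18 Mb. At the overall density of each distance band the deserts of the list would have held 69.3 desert peaks, so that the count was 2.05 times as large, and at the overall density of each GC group they would have held 88.4, which makes it 1.61 times as large. These overall densities, also used for the other lists, include X and Y, where desert peaks were sparse. The ratios on autosomes alone were not computed. In each of the 4 GC groups the list lay above all deserts, with 3.04, 4.35, 6.71 and 7.24 per Mb from the lowest to the highest group. In the highest group the interval of the list, 4.77 to 10.5 per Mb, included the density of all deserts.

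The 2 other lists lay closer to the whole. Deserts bordered by 1 of 123 annotated developmental transcription factors of other tissues had 3.55 desert peaks per Mb (3.00 to 4.18), 1.37 times the number at like distance and 1.08 times that at like GC content. Deserts bordered by 1 of 105 annotated synaptic and cell adhesion genes had 1.45 per Mb (1.27 to 1.66), 0.816 times the number at like distance and 0.970 times that at like GC content. A desert can belong to more than 1 list, as that of *Sall1* and *Tox3* does, so the lists are not independent of each other.

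**Figure D3:**
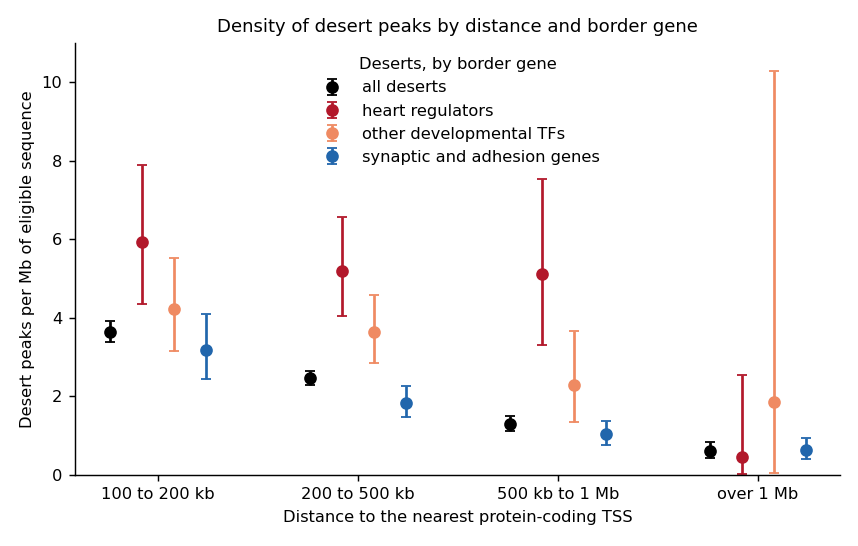
Desert peaks per Mb of eligible sequence (y axis) by distance to the nearest protein-coding TSS (x axis), for all deserts and for the deserts bordered by genes of each list, with 95% exact Poisson intervals as bars. The deserts of heart regulators (red) stay between 5.10 and 5.92 per Mb out to 1 Mb, while those of all deserts (black) fall from 3.65 to 1.304.

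Among the heart regulators, *Nr2f2* had most desert peaks beside it, 15 over both of its deserts, followed by *Meis1* and *Irx1* with 12 each and *Sall1* with 10. *Isl1*, a transcription factor of second heart field progenitors, and *Sox9*, a factor of valve mesenchyme and cartilage, had 9 each. These counts take every desert peak of a desert, also those nearer to its other border gene, and a desert between listed genes counts for each. Besides the deserts already described, groups of 5 or more desert peaks included those between *Adamts16* and *Irx1* (7), *Cetn3* and *Mef2c* (6), *Nr2f1* and *Arrdc3* (6), *Isl1* and *Parp8* (5), *Irx1* and *Irx2* (5), and *Kcnj2* and *Sox9* (5). Groups of 4 lay between *Irx3* and *Irx5*, *Sox9* and *Slc39a11*, *Id2* and *Rnf144a*, and *Itga1* and *Isl1*. Groups of 3 lay between *Med13l* and *Tbx3*, *Etaa1* and *Meis1*, *Cps1* and *Erbb4*, *Fgf9* and *1700129C05Rik*, *Arrdc4* and *Nr2f2*, and *Zeb2* and *Acvr2a*.

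The Iroquois homeobox genes, which pattern the ventricles and the conduction system, stand in 2 clusters, and both had desert peaks between their genes. Between *Irx1* and *Irx2* on chromosome 13 (chr13:71963724-72628819) the scores were 174, 60, 163, 119 and 165 tags, with a median of 163 that was the highest of the 21 heart regulator deserts with at least 3 desert peaks. Between *Irx3* and *Irx5* on chromosome 8 (chr8:91802068-92357624) they were lower, at 76.5, 74.5, 50 and 47 tags. Both deserts were dense, with 12.9 per Mb (4.19 to 30.1) and 18.2 per Mb (4.95 to 46.6).

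*Isl1* had desert peaks on both sides. On the side of *Parp8* (chr13:116309690-116854819) their scores were 156, 59, 92, 173.5 and 39 tags, and the first lay 186 kb from the *Isl1* TSS. On the side of *Itga1* there were 4, with scores from 39.5 to 77.5 tags. For *Mef2c*, which encodes a MADS-box factor of cardiac muscle, the 6 peaks in the desert upstream of it (chr13:81797156-83504033) scored 89.5, 82, 71, 107, 40.5 and 84.5 tags, and 4 of them were nearer to *Mef2c* than to *Cetn3*, at 121 to 561 kb.

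The 11 heart regulators without a desert peak beside them had little eligible sequence, between 0.00355 and 0.198 Mb. They included *Tbx5* and *Tbx20*, T-box factors of the chambers, *Bmp4* and *Wnt5a*, signalling ligands, and *Vegfa*. At 2.37 per Mb such short stretches are too small to tell a low density from the overall one.

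Most desert peaks had no other within 50 kb, and whether they stood closer together than their density implies was not tested. Another desert peak lay within 50 kb of 494 of them, 30.2%, within 10 kb of 159, 9.71%, and within 1 kb of 36, 2.198%. The median gap to the nearest other desert peak was 119 kb, and to the nearest gained peak of any class 72.3 kb. Runs in which neighbours were at most 50 kb apart reached 7 peaks beside *Nr2f2*, 5 between *Meis1* and *Spred2*, and 4 in 5 deserts: *Gm16223* to *Cpeb2*, *Arglu1* to *Fam155a*, *Lyplal1* to *Tgfb2*, *Prickle1* to *Adamts20* and *Otol1* to *Sis*. Of the 116 stronger peaks at desert location, 95, or 81.9%, lay in a desert that also held a desert peak, and such deserts made up 66.1% of the eligible sequence.

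The sequence of the peaks was not used by the rule, so it was compared with that of like peaks. The GC content of the desert peaks had a median of 50.3%, with quartiles of 47.0 and 53.7%, against 38.9% in all 4626961 windows of the same width that tile the eligible sequence. A GC content of at least 50% was found in 51.1% of the desert peaks (95% exact Clopper-Pearson interval 48.7 to 53.5%). It was more frequent in each of the other classes, with 64.7% in weaker intergenic peaks nearer to genes, 61.1% in weaker distal peaks inside genes and 81.9% in stronger peaks at desert location. The odds ratios were 0.571 (0.500 to 0.651), 0.666 (0.589 to 0.753) and 0.231 (0.135 to 0.378), with two-sided Fisher's exact tests giving adjusted p = 1.24e-16, 1.11e-10 and 1.00e-10 over 6 tests. Peaks are not replicates of a genotype, and these p-values measure only the counting of peaks.

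**Figure D4:**
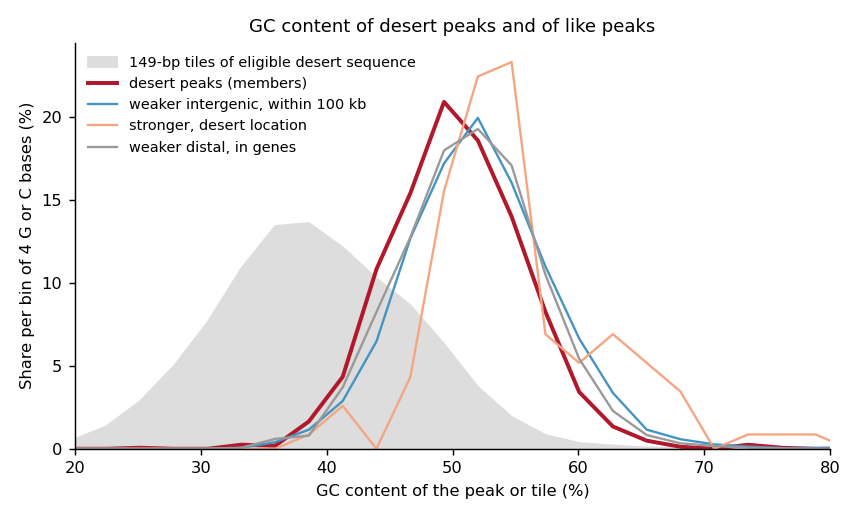
GC content (x axis, percent) of the desert peaks and of like peaks, as the share of each class per bin of 4 G or C bases (y axis, percent), with the tiles of the eligible sequence in grey. The desert peaks (red, median 50.3%) lie to the left of the other classes and far to the right of the tiles (median 38.9%).

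At least 1 CpG was present in 75.2% of the desert peaks against 83.5% of the weaker intergenic peaks nearer to genes (odds ratio 0.600, 0.511 to 0.705, exact test by Fisher's method, adjusted p = 4.27e-10) and 82.5% of those inside genes (0.645, 0.556 to 0.749, adjusted p = 6.56e-09). Observed over expected CpG had a median of 0.157 in the desert peaks, 0.208 and 0.193 in these 2 classes and 0.264 in the stronger desert peaks. GC content rose with the score within the desert peaks, from a median of 48.3% below 50 tags to 53.7% at 150 tags and above.

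Recurring sequence was more frequent in the desert peaks. More than 10% of the 36-base words recurred elsewhere in the genome in 141 of them, 8.61% (7.29 to 10.1%), against 5.27% of the weaker intergenic peaks nearer to genes, 3.14% of those inside genes and 1.72% of the stronger desert peaks. The odds ratios were 1.69 (1.305 to 2.2), 2.90 (2.21 to 3.84) and 5.37 (1.42 to 45.3), with Fisher's exact tests giving adjusted p = 7.70e-05, 1.07e-14 and 0.00450 over 3 tests. Interspersed repeats and low-complexity sequence, which the genome file marks, covered over 50% of the peak in 9.34% of the desert peaks. The share was 4.91% in the weaker intergenic peaks nearer to genes, 3.41% in those inside genes and 3.45% in the stronger desert peaks. In the tiles it was 38.8%. Reads from recurring sequence can map to several places, and the part of this in the listed scores was not tested.

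Matches to CTCF were rarer in the desert peaks than in the weaker peaks nearer to or inside genes. A match was found in 37 desert peaks, 2.26% (1.60 to 3.10%), in 7.79% (6.72 to 8.97%) of the weaker intergenic peaks nearer to genes and in 4.398% (3.69 to 5.19%) of those inside genes. The odds ratios were 0.274 (0.185 to 0.394) and 0.502 (0.337 to 0.732), with Fisher's exact tests giving adjusted p = 2.01e-13 and 0.00110 over 36 tests. In the stronger desert peaks 2 of 116 held a match, 1.72% (0.209 to 6.09%), and the interval of that odds ratio, 0.332 to 11.4, spans 1. Only 0.0141% of the tiles held the consensus, so matches were far more frequent in the desert peaks than in the sequence around them, which has less GC.

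With a shorter CTCF core of 7 letters the odds ratio against the weaker intergenic peaks was 0.546, so the size of the difference depends on the string searched. The lower share of CTCF against the weaker intergenic peaks held at either GC content. Among peaks below 50% GC, a split chosen after the data were seen, 2.62% of the desert peaks and 7.77% of the weaker intergenic peaks had a match (odds ratio 0.320 with adjusted p = 9.76e-05 by Fisher's exact test), and at 50% or more 1.91% and 7.80% had one (0.230, adjusted p = 1.48e-08). Against the peaks inside genes the odds ratio was 0.539 below 50% GC, where Fisher's exact test no longer passed (adjusted p = 0.126), and 0.448 at 50% or more (adjusted p = 0.0204). By distance, 3.21% of the desert peaks at 100 to 200 kb held a match, 1.16% at 200 to 500 kb, 2.05% (4 of 195) at 500 kb to 1 Mb and 5.13% (2 of 39) beyond 1 Mb, with no steady trend. Desert peaks with a match had a median score of 60.5 tags and those without one 63.5 tags.

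Matches to GATA, bound by zinc finger factors such as GATA4 of the cardiac lineage and GATA1 of blood, were more frequent in the desert peaks. They were found in 165, or 10.1% (8.66 to 11.6%), against 6.86% of the weaker intergenic peaks nearer to genes (odds ratio 1.52, 1.20 to 1.93, Fisher's exact test, adjusted p = 0.00195) and 6.98% of those inside genes (1.49, 1.20 to 1.86, adjusted p = 0.00181). The stronger desert peaks had 14.7% (8.78 to 22.4%), a difference that did not pass (odds ratio 0.6525, 0.376 to 1.19, Fisher's exact test, adjusted p = 0.323), and the tiles 2.35%. The difference from the weaker intergenic peaks passed Fisher's exact test below 50% GC (13.9% against 8.52%, odds ratio 1.73, adjusted p = 0.0149), but not at 50% or more (6.45% against 5.95%, odds ratio 1.09 with an interval of 0.752 to 1.57, adjusted p = 0.782). At 50% or more the stronger desert peaks had a match more often than the desert peaks (14.7% against 6.45%, odds ratio 0.3995 with adjusted p = 0.0382 by Fisher's exact test), and the odds ratio against peaks inside genes was 1.22 (adjusted p = 0.562). The same letters in another order (AAGTAGA) were found in 1.47% of the desert peaks, 1.64% of the weaker intergenic peaks, 0.959% of the peaks inside genes and 3.32% of the tiles. Against the peaks inside genes the odds ratio of the reordered string was 1.54 (0.853 to 2.74, Fisher's exact test, adjusted p = 0.374), about that of GATA itself, with a wider interval.

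Matches to MEIS, the TALE homeodomain proteins to which *Meis1* belongs, were the most frequent, in 417 desert peaks, 25.5% (23.4 to 27.6%). The share was 20.2% in the weaker intergenic peaks nearer to genes (odds ratio 1.35, 1.15 to 1.57, Fisher's exact test, adjusted p = 0.00110) and 23.0% in those inside genes, for which the test was not passed (1.14, 0.990 to 1.32, adjusted p = 0.231). The first difference passed the exact test at 50% GC or more (27.1% against 19.5%, adjusted p = 0.000362), whereas below 50% it did not pass (23.7% against 21.6%, adjusted p = 0.930). Whether the odds ratios differ between the GC ranges was not tested. The tiles held the 6 letters in 8.74%.

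SP1/KLF matches (GGGCGG), a GC-rich string typical of promoters, were rarer in the desert peaks than in every other class. They were found in 54, or 3.30% (2.49 to 4.28%), against 6.68% of the weaker intergenic peaks nearer to genes, 5.16% of those inside genes and 14.7% of the stronger desert peaks. The odds ratios were 0.476 (0.3398 to 0.659), 0.627 (0.448 to 0.865) and 0.199 (0.109 to 0.380), with Fisher's exact tests giving adjusted p = 2.36e-05, 0.0138 and 2.36e-05. Below 50% GC the shares of the first pair were 1.62% and 1.63% (odds ratio 0.996, with an interval of 0.423 to 2.35), and at 50% or more, by the same exact test, the odds ratios against the first 2 classes were 0.494 (adjusted p = 0.000609) and, no longer passing, 0.628 (adjusted p = 0.0511). An SP1/KLF match can lie within a CTCF match.

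For the other motifs no comparison with the 3 classes passed the test. NKX2 (TNAAGTG), the site of NKX2-5 and its relatives, was matched in 11.6% of the desert peaks against 9.52% of the weaker intergenic peaks (odds ratio 1.25, 1.01 to 1.54, Fisher's exact test, adjusted p = 0.152). MEF2 was matched in 3.17% against 2.52% (1.27, 0.848 to 1.89) and TEAD in 3.17% against 2.70% (1.18, 0.795 to 1.75). SRF was matched in 0.794% against 1.46%, TBX (AGGTGTGA) in 0.672% against 0.531%, ETS (CAGGAAGT) in 1.34% against 1.11% and AP-1 (TGANTCA) in 6.53% against 6.51%. Among the tiles, 4.22% held MEF2, 0.712% TEAD, 0.924% SRF and 4.47% AP-1, so the shares of MEF2 and SRF in the desert peaks were no higher than in the surrounding sequence, which is richer in A and T. A match is a string found in the peak and does not show binding.

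**Figure D5:**
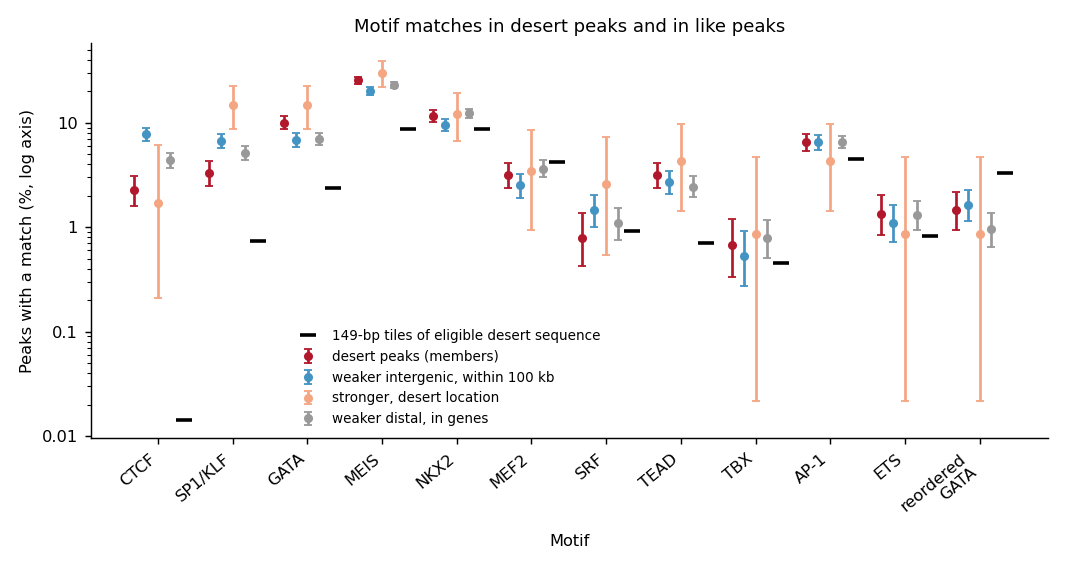
Share of peaks with a match to each motif (y axis, percent on a log axis) in the desert peaks and in like peaks, with 95% exact Clopper-Pearson intervals, and in the tiles of the eligible sequence (black bars). The desert peaks (red) lie below the weaker intergenic peaks (blue) for CTCF, 2.26% against 7.79%, and for SP1/KLF, and above them for GATA, 10.1% against 6.86%, and for MEIS.

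The WT-enriched list held 106 peaks, of which 18 lay at the desert location. Their scores ran from 26.8 to 59.1 scaled tags of the WT libraries, 9 of them had over 10% recurring 36-base words, and none held a CTCF match, which allows a share of up to 18.5%. None of the 106 lay within 10 kb of a desert peak. With only 18 of them at desert location and 2.37 desert peaks per Mb of eligible sequence, nothing is read from this. That none overlapped a desert peak follows from how the lists were made, since they hold opposite directions.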

How the data were processed

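The ATAC-seq libraries of WT and *Smyd1-KO* hearts at E9.5, 2 per genotype, were processed by the authors. Per the study's methods, the genome build was mm10, the aligner BWA-MEM and the peak caller HOMER v4.10.3. The headers of the study's peak tables name 1 combined tag set per genotype, from which peaks with a tag ratio of at least 2 that passed a Poisson p cutoff were kept. The deposited value per peak is a signal, the total tags that HOMER gave for that genotype's combined set. It comes in fractions and is therefore scaled, by a factor not given in the sources used here. Treatment of duplicates, multi-mapping reads and the Tn5 offset, each of which can change which weak peaks are listed, is not given in the sources used here. Library depth is not in the lists, and since the libraries were combined, no value has a replicate error.

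Distances ran from the nearer peak edge to the TSSs of GENCODE release M21 (full set), with sequence from RefSeq's GRCm38. A desert is the gap between neighbouring protein-coding genes. Then 3 classes of gained peaks were compared with the desert peaks: scores below 200 in intergenic sequence at most 100 kb from a protein-coding TSS, the same inside protein-coding genes, both over 10 kb from any TSS, and scores of 200 or more at desert location. Differences between shares were tested with Fisher's exact test, two-sided, adjusted by Benjamini-Hochberg over 36 motif, 6 composition and 3 repeat tests (threshold 0.05), with 95% exact intervals. Motifs were fixed strings searched on both strands, which miss variants of a site. Names were printed for the border genes of the 12 deserts with most desert peaks, of the 8 densest with at least 5, of heart regulator deserts with at least 3, and for the 10 highest-scoring peaks. The values of 1 desert that this rule names are not reported here. Runs of neighbouring peaks, deserts without a peak and noncoding genes were named after their values were seen. Members and lists were chosen with earlier results of these data known. Alternatives were TSSs of basic transcripts, distances from the peak centre, a limit of 200 kb, scores of at least 60, no recurring sequence, merging within 1 kb, autosomes only and a CTCF core of 7 letters. Scripts were tested on simulated data and used Python 3.11.15, numpy 2.4.6, pandas 2.3.3, scipy 1.17.1 and numba 0.67.0, with figures from matplotlib 3.10.9.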

Additional observations from a re-analysis of the deposited data

How the results depend on the processing

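No paired analysis was possible because the libraries of each genotype were combined before peaks were called, and for the same reason no replicate could be left out. With a limit of 200 kb there were 922 desert peaks, 1.87 per Mb, and 1.52% held a CTCF match. With scores of at least 60 tags there were 892, 1.29 per Mb and 2.79 per Mb beside heart regulators, and 8.30% lay within 10 kb of another. Only 5 of the 12 deserts with most peaks were then among the first 12, and *Arglu1* to *Fam155a* and *Nr2f2* to *Gm10295* each held 8, the highest number. With the basic transcripts 11 of the 12 deserts were shared and *Slc4a3* to *Epha4* came first with 13. Without recurring sequence the density was 2.17 per Mb, and on the autosomes alone 2.68. With peaks merged within 1 kb, 7.73% lay within 10 kb of another. The CTCF core (AGNGGGC), which can lie within the longer CTCF string, was matched in 12.3% of the desert peaks, 20.5% of the weaker intergenic peaks and 17.4% of those inside genes, and the odds ratios, 0.546 (0.454 to 0.655) and 0.670 (0.559 to 0.800), were nearer to 1 than with the longer string. Under these settings the tests of GC content and of CTCF that had passed kept their direction and their side of the threshold. Split by GC content, a choice made after the data were seen, the CTCF odds ratio against peaks inside genes was 0.539 below 50% GC (Fisher's exact test, adjusted p = 0.126). Against the weaker intergenic peaks the odds ratios of MEIS and SP1/KLF below 50% GC, 1.13 and 0.996, and that of GATA at 50% or more, 1.09, no longer passed, and the cause was not tested. The stronger desert peaks below 50% GC, 21 in number, held no CTCF match and gave no finite odds ratio, nor did those beyond 200 kb. Consensus strings and combined tags limit what the weakest peaks can show.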
